A study of Mus musculus with 16 samples.

Results

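Expression of 36 genes of the endoplasmic reticulum (ER) was followed in 16 RNA-seq libraries of the mouse macrophage-like line RAW264.7. The genes encode chaperones and co-chaperones (9), lectin chaperones (2), protein disulfide isomerases (4), sensors and transcription factors of the unfolded protein response (3), factors of ER-associated degradation (10), and the machinery of translocation and N-glycosylation (8). They were chosen by their known function, as the ATF6 and XBP1 side of the response, and found by gene symbol. Earlier results of these data were known when they were chosen. All 36 were among the 55573 gene records, and 35 were among the 13107 genes that passed the filter on low counts. Derl3, a derlin, had 0 counts in all 16 libraries, which allows up to 0.0700 to 0.131 CPM (counts scaled to the library total) per library at a limit of 3 counts, for counting error only.

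Proteins bound for the secretory pathway enter the ER through the Sec61 channel, receive N-linked sugars there, and fold with the help of BiP, lectin chaperones and disulfide isomerases. When unfolded proteins build up, the sensors IRE1 and ATF6 are activated: IRE1 splices the mRNA of XBP1, ATF6 is cut in the Golgi, and the resulting transcription factors raise the genes of folding, translocation and degradation. Proteins that fail to fold are passed back to the cytosol through the Hrd1 ligase complex and destroyed by the proteasome.

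The study compared the parental line (Parental, 4 libraries) with 3 knockdowns of 4 libraries each: CDC50A KD, ATP11A/C KD and ORP5/8 KD. CDC50A is a partner that most flippases need to exit the ER, ATP11A is a flippase that turns phosphatidylserine to the inner leaflet, and ORP5 and ORP8 ferry that lipid out of the ER to the cell surface. All were RAW264.7 cells collected the day after plating, and the labels name no treatment. The knockdown libraries carry names starting with "sh", an abbreviation left unexplained in the labels, and Parental carries no construct name; non-targeting controls were not analysed here. Whether libraries of a group are separate cultures is not stated, so each p-value reflects spread among libraries that may be technical.

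The libraries held 24020891 to 41543050 counts. Osbpl8, which encodes ORP8, was at 29.4% of its Parental mean in ORP5/8 KD, but also at 34.5% in CDC50A KD and 37.6% in ATP11A/C KD, and the group means of Osbpl5 were 0.140 to 0.198 CPM. Atp11a was at 34.9% in ATP11A/C KD, and Tmem30a, which encodes CDC50A, was at 78.6% in CDC50A KD and at 80.8% in ORP5/8 KD. Groups are therefore named as labelled. Of 10 macrophage markers, 9 were above 1 CPM in every library, with Mertk the exception. Their summed level was 11661 to 12392 CPM in Parental, 7425 to 7721 in CDC50A KD, 6394 to 6762 in ATP11A/C KD and 7563 to 7980 in ORP5/8 KD. Most of that difference was in Lyz2, the most abundant of them, at 6827 to 7450 CPM in Parental and 2472 to 4291 CPM in the knockdowns. Without Lyz2 the other 9 summed to 4673 to 4942 CPM in Parental, 4582 to 4778 in CDC50A KD, 3798 to 4219 in ATP11A/C KD and 3552 to 3722 in ORP5/8 KD. Fibroblast, lymphocyte and epithelial markers summed to at most 0.124 CPM in any library. The mitochondrial share of counts was 1.19% ± 0.0744 (SD, n = 4) in Parental, 1.63% ± 0.151 in CDC50A KD, 1.56% ± 0.194 in ATP11A/C KD and 1.68% ± 0.112 in ORP5/8 KD. The part of these shifts in the results was not tested.

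Many genes of this response carry an ER stress response element upstream of their start, in which NF-Y binds CCAAT and ATF6 or XBP1 binds CCACG. Both known forms were searched on both strands: ERSE, which is CCAAT and CCACG with 9 bases of any kind between them, and ERSE-II, which is ATTGG and CCACG with 1 base of any kind between them. The windows were RefSeq's of 300 bases (250 before and 50 after the gene start, GRCm38.p6). The search was added after expression values had been seen, and a match describes letters, not a working site. Windows were at hand for 30 of the 36 genes. ERSE was found in 9 of them, against 37 of all 27025 genes with a window (0.137%), and ERSE-II in 2, against 12 of all genes (0.0444%). These totals include the genes followed here. Genes of this response are known carriers of these forms, so their higher share is no new support. The elements are shown because 11 of the genes share them. Each is written in its own 5′ to 3′ direction, with the fixed letters in capitals.
Hspa5 ERSE: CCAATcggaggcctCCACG
Hsp90b1 ERSE, first: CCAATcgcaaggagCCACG
Hsp90b1 ERSE, second: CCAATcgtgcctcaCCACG
Calr ERSE: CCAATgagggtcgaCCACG
Canx ERSE: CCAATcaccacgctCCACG
Pdia6 ERSE: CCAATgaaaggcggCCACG
Creld2 ERSE: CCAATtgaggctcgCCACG
Dnajc3 ERSE: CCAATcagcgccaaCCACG
Syvn1 ERSE: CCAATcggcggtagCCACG
Derl3 ERSE: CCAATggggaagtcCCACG
Herpud1 ERSE-II: ATTGGgCCACG
Dnajb11 ERSE-II: ATTGGcCCACG
The Hspa5 element covered bases 65 to 47 before the RefSeq start, which lies 120 bases after the start of the GENCODE gene record given with its levels below, so by GENCODE the element is inside the gene. The RefSeq and GENCODE starts of Hsp90b1 were 65 bases apart and those of the other 9 genes at most 44. The starts of genes with a window and no match were not compared. Of the 31 windows of the 30 genes, 24 had the bases just after the start in a GENCODE transcript of the gene. The elements of Calr, Creld2 and Derl3, and the second of Hsp90b1, lay on the strand opposite to the gene. That of Dnajb11 lay after the start. The 250 bases before the start are given for Creld2, the gene with the highest fold change in CDC50A KD, and for Herpud1, as the carrier of ERSE-II upstream. Creld2 is at chr15:88819396-88819645 on the plus strand, with the fixed letters in capitals read on the opposite strand (CGTGG and ATTGG), and Herpud1 is at chr8:94386179-94386428 on the plus strand.
Creld2 upstream: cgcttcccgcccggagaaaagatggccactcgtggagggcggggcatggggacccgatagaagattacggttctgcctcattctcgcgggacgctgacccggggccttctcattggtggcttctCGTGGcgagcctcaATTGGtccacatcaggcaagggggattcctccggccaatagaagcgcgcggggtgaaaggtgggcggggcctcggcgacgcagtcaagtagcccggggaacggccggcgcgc
Herpud1 upstream: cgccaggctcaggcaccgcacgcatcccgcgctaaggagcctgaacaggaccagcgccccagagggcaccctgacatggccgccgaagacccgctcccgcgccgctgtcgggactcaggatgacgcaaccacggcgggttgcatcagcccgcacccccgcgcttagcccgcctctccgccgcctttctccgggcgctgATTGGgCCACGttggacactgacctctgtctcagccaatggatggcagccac

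**Figure D1:**
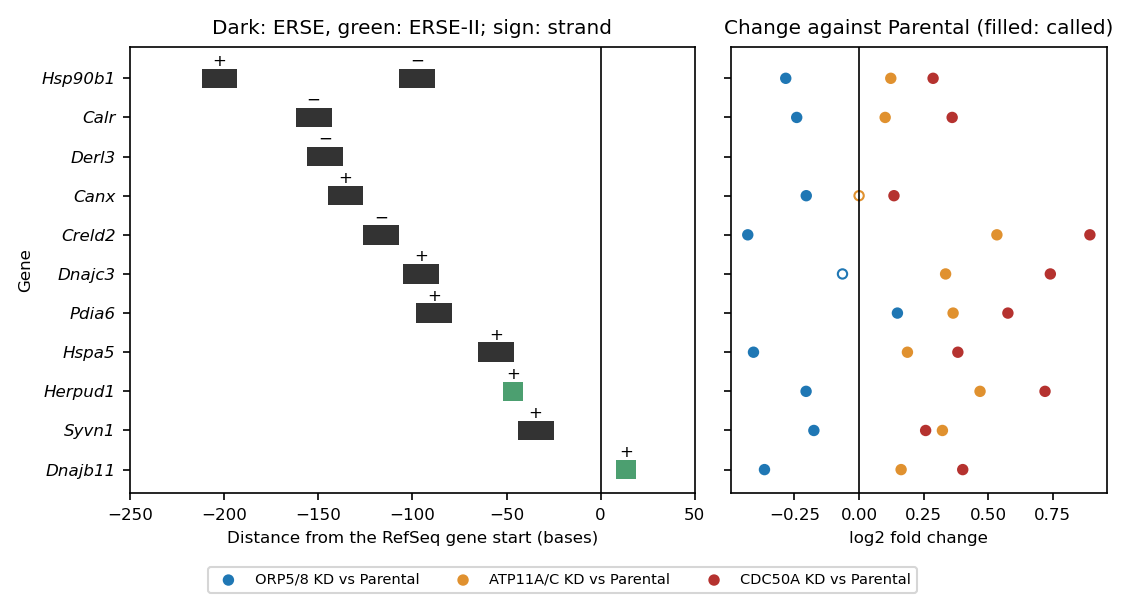
Positions of ERSE (dark) and ERSE-II (green) in bases from the RefSeq gene start (left, signs give the strand) and log2 fold change of the same genes against Parental (right, filled points called at an adjusted p under 0.05). All 10 tested genes with an element were called higher in CDC50A KD, against 12 of 19 with a window and neither form and 24.3% of all tested genes. Derl3, with 0 counts, has no point.

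Against Parental, most of these genes were lower in ORP5/8 KD and higher in the other two knockdowns. In ORP5/8 KD, 30 of the 35 tested genes were lower and 2 were higher, with a median log2 fold change of -0.27, where 24.3% of all tested genes were lower and 22% higher. Upper-quartile scaling moved that split over all genes from 3181 lower and 2878 higher to 2479 lower and 4270 higher, and left 26 of the 35 lower and 2 higher. In ATP11A/C KD, 21 were higher and 2 were lower, with a median of 0.12, against 17.4% and 20.2% of all genes. The same scaling moved the split over all genes there from 2276 higher and 2650 lower to 2786 and 2424, and left 21 higher and 2 lower. In CDC50A KD, 27 were higher and 1 was lower, with a median of 0.32, against 24.3% and 26.1% of all genes. Leaving out single libraries gave 27 to 30 lower in ORP5/8 KD, 16 to 21 higher in ATP11A/C KD and 24 to 29 higher in CDC50A KD. Medians over all tested genes were 0.02, 0.01 and -0.0098. No gene of the 36 reached a 2-fold change against Parental. The 3 comparisons share the Parental libraries, so they are not independent of each other. A gene was called at a Benjamini-Hochberg adjusted p under 0.05 in edgeR's quasi-likelihood test, and levels are CPM after TMM scaling. In such bulk samples, fewer cells with a transcript and less of it per cell cannot be told apart.

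**Figure D2:**
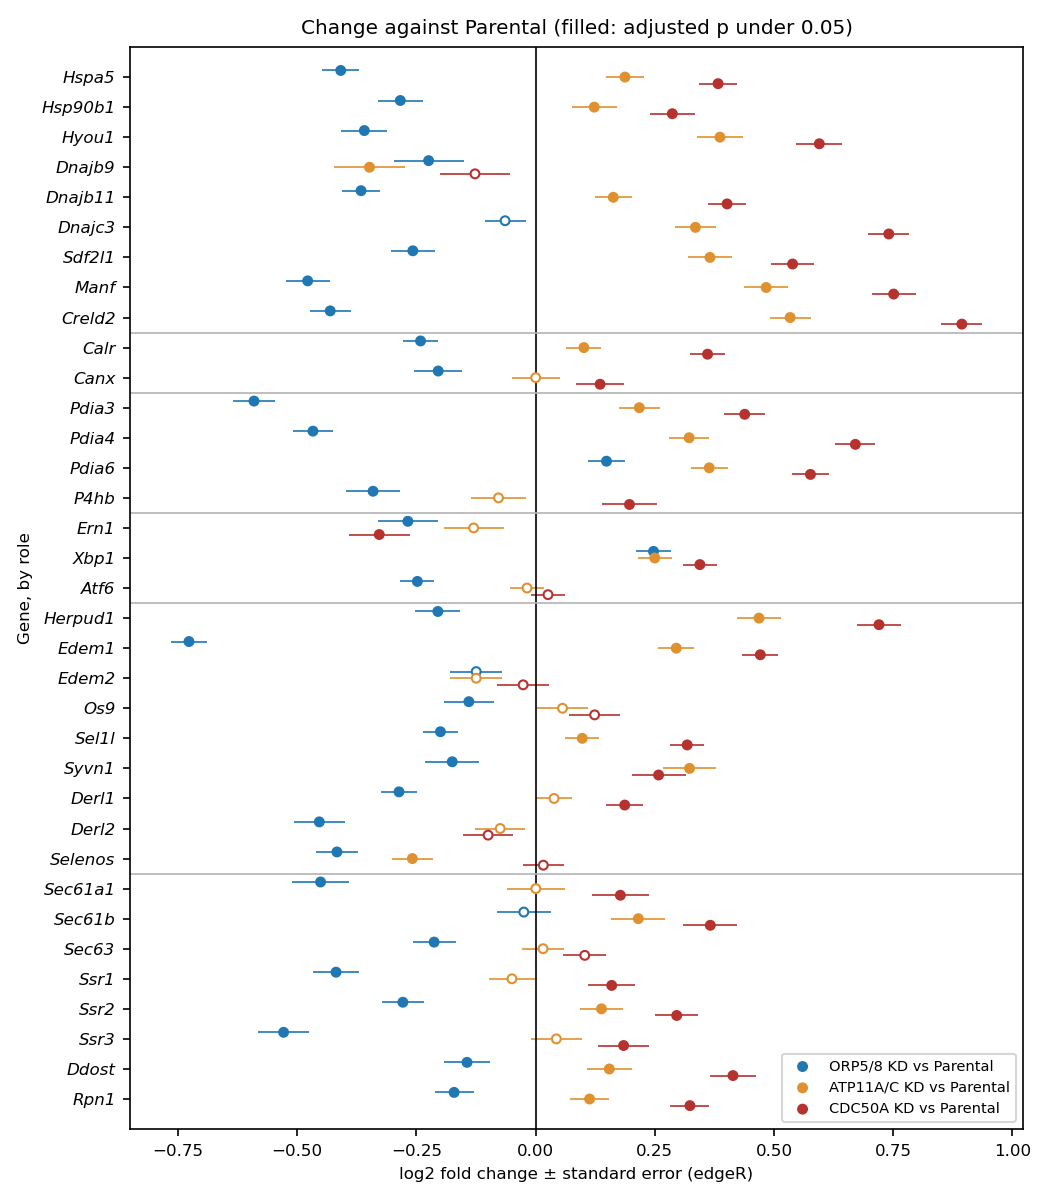
Log2 fold change ± SE of each of the 35 tested genes against Parental, by role, with filled points called at an adjusted p under 0.05. Points of ORP5/8 KD lie left of 0 for all but Pdia6 and Xbp1, and those of CDC50A KD lie right of 0 for all but Dnajb9, Ern1, Edem2 and Derl2.

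The share of all counts held by the 36 genes was taken directly from the counts. It was 1.77% ± 0.0140 (SD, n = 4) in Parental, 2.175% ± 0.0443 in CDC50A KD, 1.995% ± 0.0321 in ATP11A/C KD and 1.51% ± 0.0318 in ORP5/8 KD. The libraries of the 4 groups did not overlap in this share. Hspa5, Hsp90b1 and Calr made up 0.608% of all counts in Parental. Without them the shares were 1.16%, 1.43%, 1.31% and 0.992% in the same order of groups.

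**Figure D3:**
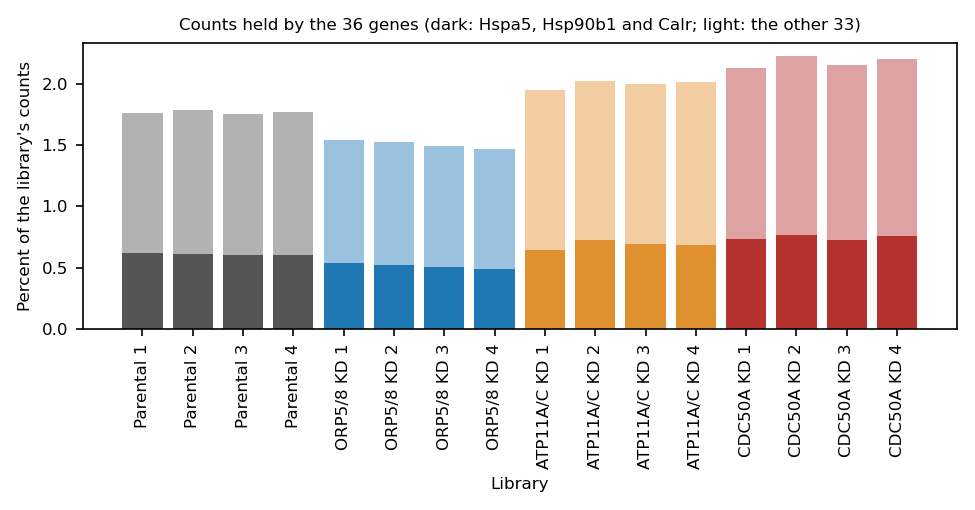
Percent of each library's counts held by the 36 genes, with Hspa5, Hsp90b1 and Calr dark and the others light. The 4 ORP5/8 KD bars are below and the 8 bars of ATP11A/C KD and CDC50A KD above the Parental bars of 1.75% to 1.79%.

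The order of the group means was ORP5/8 KD, Parental, ATP11A/C KD, CDC50A KD from low to high for 24 of the 35 genes. For 12 genes the libraries of all 4 groups were apart: Hspa5, Hyou1, Dnajb11, Sdf2l1, Manf, Creld2, Calr, Pdia3, Pdia4, Edem1, Sel1l and Ssr2. The shares of all tested genes with that order, or with groups apart, were not taken. The 24 and the 12 therefore describe these genes only. Between neighbours in that order, 22 of the 24 genes were called lower in ORP5/8 KD than in Parental. Of the same 24, 18 were called higher in ATP11A/C KD than in Parental and 19 higher in CDC50A KD than in ATP11A/C KD. The 24 were picked by their means, which fixed the direction of these calls in advance. Over all 35 tested genes the 3 counts were 30, 21 and 24, against 24.3%, 17.4% and 13.5% of all tested genes. P4hb, Atf6, Selenos and Ssr1 had the order ORP5/8 KD, ATP11A/C KD, Parental, CDC50A KD.

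**Figure D4:**
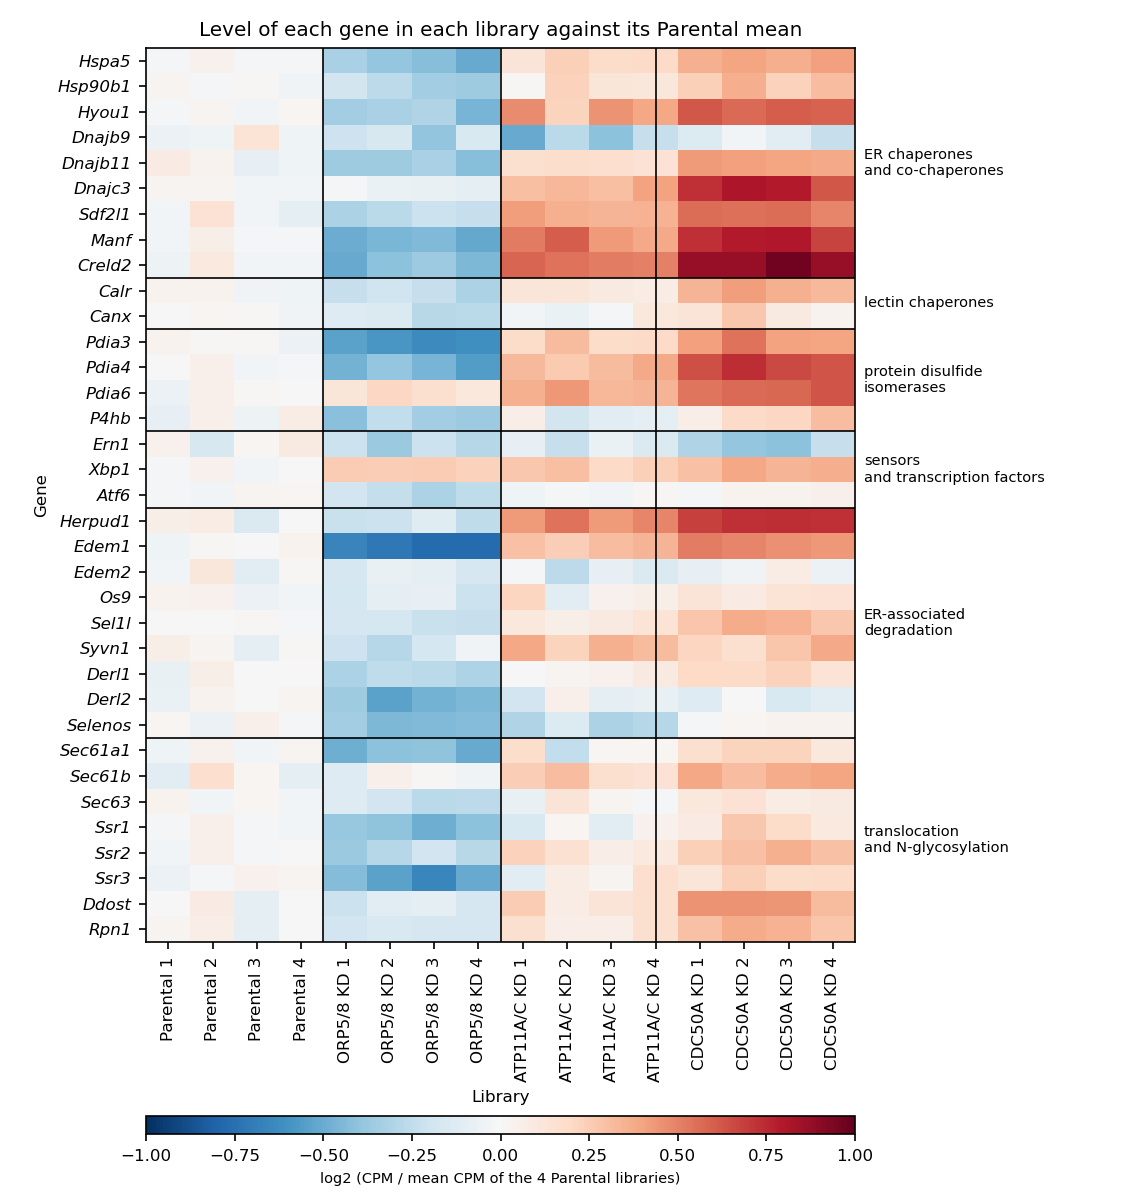
Level of each of the 35 detected genes (y) in each of the 16 libraries (x), as log2 of CPM over the mean of the 4 Parental libraries, grouped by role. ORP5/8 KD columns are mostly blue (lower) and CDC50A KD columns mostly red (higher), with Xbp1 and Pdia6 red in all 3 knockdowns and Ern1 blue.

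Per length of exon, Calr stood highest in Parental at 862 CPM per kb, followed by Hsp90b1 at 671, Hspa5 at 628 and P4hb at 618 CPM per kb. Ern1 was the lowest detected gene at 3.57 CPM per kb, and the median of the 12973 tested genes with a length was 8.59 CPM per kb. The range within the roles was wide: the chaperone genes Dnajc3 and Dnajb9 stood at 24.8 and 8.34 CPM per kb, and the sensor gene Atf6 at 32.6.

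Of the 9 chaperones and co-chaperones, 8 were lower in ORP5/8 KD, 8 were higher and 1 lower in ATP11A/C KD, and 8 were higher in CDC50A KD. Hspa5 (ENSMUSG00000026864.13, chr2:34771970-34777547, plus strand, GRCm38) encodes BiP, the main Hsp70 chaperone of the ER lumen. Its level by library was 2335, 2429, 2335 and 2335 CPM in Parental, 1883, 1806, 1753 and 1665 CPM in ORP5/8 KD, 2575, 2785, 2684 and 2698 CPM in ATP11A/C KD and 3022, 3103, 3039 and 3135 CPM in CDC50A KD. Every ORP5/8 KD library was below and every ATP11A/C KD and CDC50A KD library above the Parental range. Against Parental, Hspa5 differed on the log2 scale by -0.41 ± 0.04 (SE, adjusted p = 2.05e-08) with ORP5/8 KD, 0.19 ± 0.04 (SE, adjusted p = 6.63e-04) with ATP11A/C KD and 0.38 ± 0.04 (SE, adjusted p = 7.93e-08) with CDC50A KD. Creld2, an ER protein with EGF-like repeats, had the highest fold change of all 36 genes. It stood at 122, 136, 125 and 124 CPM in Parental, 89.4, 95.3, 98.8 and 92.98 CPM in ORP5/8 KD, 189.8, 184, 181 and 179 CPM in ATP11A/C KD and 232, 232, 247 and 232 CPM in CDC50A KD. The 4 groups did not overlap. The log2 fold change of Creld2 was -0.43 ± 0.04 (SE, adjusted p = 4.21e-08), 0.53 ± 0.04 (SE, adjusted p = 2.10e-09) and 0.89 ± 0.04 (SE, adjusted p = 6.35e-13) for the ORP5/8, ATP11A/C and CDC50A knockdowns, the last being 1.86-fold of Parental.

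Manf, a BiP-binding ER protein that can be secreted, was at 255, 271, 259 and 257 CPM in Parental, 185, 189.6, 192 and 183 CPM in ORP5/8 KD, 373, 396, 350.2 and 339 CPM in ATP11A/C KD and 433, 451, 454 and 416 CPM in CDC50A KD. Its groups were again apart, with log2 fold changes of -0.48 ± 0.05 (SE, adjusted p = 2.36e-08), 0.48 ± 0.05 (SE, adjusted p = 2.91e-08) and 0.75 ± 0.05 (SE, adjusted p = 2.83e-11). Dnajc3 encodes a J-domain co-chaperone of BiP. It was at 129.9, 130.2, 125 and 126 CPM in Parental, 126, 122, 121 and 119 CPM in ORP5/8 KD, 157, 161, 157 and 169 CPM in ATP11A/C KD and 212, 224, 222 and 197 CPM in CDC50A KD. Its ORP5/8 KD libraries overlapped with Parental, with a difference of -0.06 ± 0.04 that was not called (adjusted p = 0.236). The log2 fold change was 0.34 ± 0.04 (SE, adjusted p = 2.04e-06) in ATP11A/C KD and 0.74 ± 0.04 (SE, adjusted p = 1.08e-11) in CDC50A KD.

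The remaining chaperones moved in the same directions except Dnajb9. Hsp90b1, the Hsp90 of the ER, was at 1895 ± 34.8 CPM in Parental, 1556 ± 88.2 CPM in ORP5/8 KD, 2063 ± 127 CPM in ATP11A/C KD and 2311 ± 98.6 CPM in CDC50A KD (SD, n = 4 each). Hyou1, an exchange factor for BiP, was at 795 ± 14.6 CPM in Parental, 619.8 ± 30.3 CPM in ORP5/8 KD, 1039 ± 78.2 CPM in ATP11A/C KD and 1201 ± 19.4 CPM in CDC50A KD. Dnajb11, a J-domain co-chaperone, was at 220.3 ± 11.4 CPM in Parental, 171 ± 5.19 CPM in ORP5/8 KD, 247 ± 2.10 CPM in ATP11A/C KD and 291 ± 4.07 CPM in CDC50A KD. Its partner Sdf2l1 was called in the same directions, with log2 fold changes of -0.26, 0.37 and 0.54 for the ORP5/8, ATP11A/C and CDC50A knockdowns. Dnajb9, another J-domain co-chaperone and a known XBP1 target, was at 20.5 ± 1.35 CPM in Parental, 17.6 ± 1.31 CPM in ORP5/8 KD, 16.1 ± 1.40 CPM in ATP11A/C KD and 18.8 ± 1.10 CPM in CDC50A KD. It was lower in ORP5/8 KD (-0.22 ± 0.07 (SE, adjusted p = 0.0164)) and in ATP11A/C KD (-0.35 ± 0.07 (SE, adjusted p = 8.12e-04)), and not called in CDC50A KD (-0.13 ± 0.07, adjusted p = 0.161). The call of Hsp90b1 in ATP11A/C KD (adjusted p = 0.0472) was lost without Parental 2, 3 or 4, ATP11A/C KD 2, 3 or 4 or CDC50A KD 1, 2, 3 or 4, with no low-count filter, with a filter of 1 CPM in 4 libraries, with the replicate number as a block or in a fit of the 2 groups alone (adjusted p from 0.0509 to 0.112). That of Dnajb9 in ORP5/8 KD was lost without Parental 3 or ORP5/8 KD 3 or with upper-quartile scaling (adjusted p from 0.0699 to 0.0985).

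**Figure D5:**
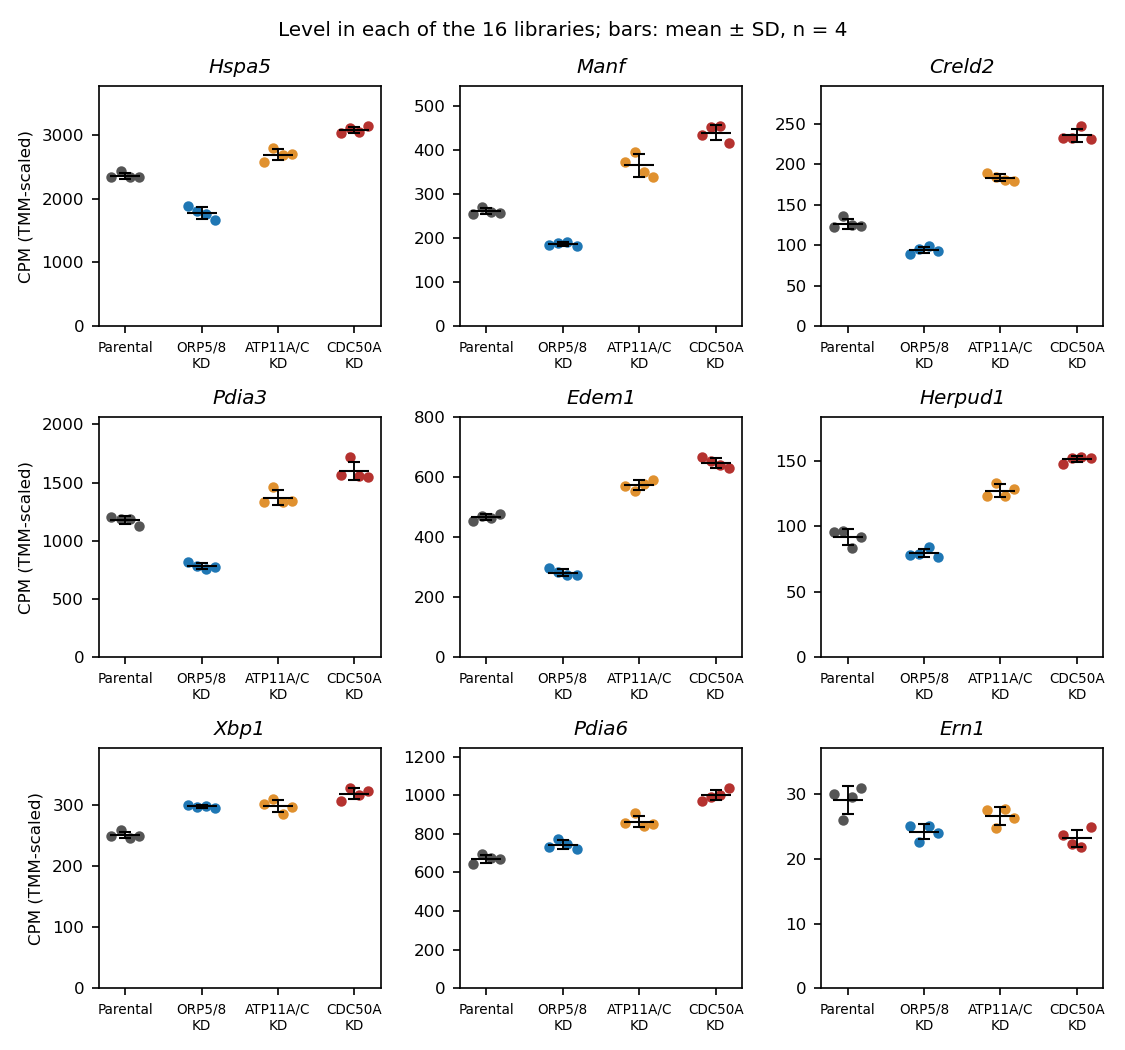
CPM after TMM scaling (y) in each of the 4 libraries of each group (x) for 9 genes, with mean ± SD. Hspa5, Manf, Creld2, Pdia3 and Edem1 show 4 separate groups, Xbp1 and Pdia6 lie above Parental in all 3 knockdowns, and Ern1 is highest in Parental.

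Both lectin chaperones, which hold newly made glycoproteins, were lower in ORP5/8 KD and higher in CDC50A KD. Calr, the soluble calreticulin, was at 1931, 1929, 1841 and 1833 CPM in Parental, 1608, 1643, 1607 and 1516 CPM in ORP5/8 KD, 2043, 2050.3, 2004 and 1985 CPM in ATP11A/C KD and 2385, 2520.1, 2412 and 2357 CPM in CDC50A KD. The groups did not overlap. Its log2 fold change was -0.24 ± 0.04 (SE, adjusted p = 1.46e-05), 0.10 ± 0.04 (SE, adjusted p = 0.0346) and 0.36 ± 0.04 (SE, adjusted p = 7.60e-08) for the ORP5/8, ATP11A/C and CDC50A knockdowns. Canx, the membrane-bound calnexin, was at 1213, 1229, 1226 and 1184 CPM in Parental, 1108, 1096, 1003 and 1005 CPM in ORP5/8 KD, 1191, 1158, 1202 and 1302 CPM in ATP11A/C KD and 1329, 1462, 1294 and 1245 CPM in CDC50A KD. Its ATP11A/C KD libraries spanned the Parental range (adjusted p = 0.997), while its log2 fold change was -0.20 ± 0.05 (SE, adjusted p = 0.00204) in ORP5/8 KD and 0.14 ± 0.05 (SE, adjusted p = 0.029) in CDC50A KD. The call of Calr in ATP11A/C KD was lost without Parental 3 or 4, ATP11A/C KD 1 or CDC50A KD 1 or 3, with no low-count filter or in a fit of the 2 groups alone (adjusted p from 0.0552 to 0.134). That of Canx in CDC50A KD was lost without Parental 4 or CDC50A KD 1 or 2 or with a filter of 1 CPM in 4 libraries (adjusted p from 0.0528 to 0.216).

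Of the 4 disulfide isomerases, which form and rearrange disulfide bonds, ORP5/8 KD had 3 lower and 1 higher, ATP11A/C KD 3 higher and CDC50A KD all 4 higher. Pdia3, which works with the lectin chaperones, was at 1207, 1190.2, 1189.7 and 1129.9 CPM in Parental, 814, 788, 759.98 and 771 CPM in ORP5/8 KD, 1336, 1466, 1337 and 1346 CPM in ATP11A/C KD and 1569, 1719, 1556 and 1549.7 CPM in CDC50A KD. The groups did not overlap, and ORP5/8 KD had the lowest levels. The log2 fold changes of Pdia3 were -0.59 ± 0.04 (SE, adjusted p = 2.83e-10), 0.22 ± 0.04 (SE, adjusted p = 4.06e-04) and 0.44 ± 0.04 (SE, adjusted p = 4.54e-08) for the ORP5/8, ATP11A/C and CDC50A knockdowns. Pdia4, which has several thioredoxin-like domains, was at 329, 342, 324 and 326 CPM in Parental, 238, 253, 239 and 225 CPM in ORP5/8 KD, 412, 397, 412 and 429.7 CPM in ATP11A/C KD and 517, 552, 522 and 511 CPM in CDC50A KD. Its groups were apart too, with log2 fold changes of -0.47 ± 0.04 (SE, adjusted p = 7.11e-09), 0.32 ± 0.04 (SE, adjusted p = 2.48e-06) and 0.67 ± 0.04 (SE, adjusted p = 3.50e-11). Pdia6, an isomerase that binds BiP, went another way and was at 645, 695, 676 and 667 CPM in Parental, 731, 774, 748 and 720.2 CPM in ORP5/8 KD, 857, 905, 842 and 848 CPM in ATP11A/C KD and 972, 991, 999.6 and 1037 CPM in CDC50A KD. Every library of the 3 knockdowns was above the Parental range. On the log2 scale Pdia6 differed from Parental by 0.15 ± 0.04 (SE, adjusted p = 0.0034), 0.36 ± 0.04 (SE, adjusted p = 1.59e-07) and 0.58 ± 0.04 (SE, adjusted p = 1.25e-10). P4hb, the founding isomerase and a subunit of prolyl 4-hydroxylase, was at 1769 ± 93.3 CPM in Parental, 1397 ± 71.2 CPM in ORP5/8 KD, 1676 ± 125 CPM in ATP11A/C KD and 2028 ± 139 CPM in CDC50A KD. It was called lower in ORP5/8 KD (-0.34 ± 0.06 (SE, adjusted p = 4.58e-05)), higher in CDC50A KD (0.20 ± 0.06 (SE, adjusted p = 0.00669)) and not called in ATP11A/C KD (-0.08 ± 0.06, adjusted p = 0.309).

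The 3 sensors and transcription factors each had another pattern. Xbp1, whose spliced mRNA encodes the active factor, was at 249, 259, 247 and 249.9 CPM in Parental, 299.997, 298, 299 and 295 CPM in ORP5/8 KD, 302, 310.03, 286 and 296 CPM in ATP11A/C KD and 308, 328, 317 and 322 CPM in CDC50A KD. Every knockdown library was above the Parental range. Its log2 fold change was 0.25 ± 0.04 (SE, adjusted p = 8.51e-06), 0.25 ± 0.04 (SE, adjusted p = 1.08e-05) and 0.34 ± 0.04 (SE, adjusted p = 1.16e-07) for the ORP5/8, ATP11A/C and CDC50A knockdowns. The deposited values are counts per gene, so spliced and unspliced Xbp1 are added together. Ern1, which encodes the sensor IRE1, was at 30.000, 26.003, 29.6 and 30.9 CPM in Parental, 25.1, 22.6, 25.1 and 23.95 CPM in ORP5/8 KD, 27.5, 24.8, 27.7 and 26.3 CPM in ATP11A/C KD and 23.6, 22.3, 21.9 and 24.8 CPM in CDC50A KD. All ORP5/8 KD and CDC50A KD libraries were below the Parental range, and those of ATP11A/C KD overlapped with it. The log2 fold change of Ern1 was -0.27 ± 0.06 (SE, adjusted p = 0.00147) in ORP5/8 KD and -0.33 ± 0.06 (SE, adjusted p = 2.29e-04) in CDC50A KD, and -0.13 ± 0.06 without a call in ATP11A/C KD (adjusted p = 0.113), which became a call without Parental 2 (adjusted p = 0.0406). Atf6, the sensor that is cut in the Golgi, was at 233, 232, 240.03 and 239 CPM in Parental, 207, 199.9, 190.1 and 199 CPM in ORP5/8 KD, 229, 234, 231 and 239 CPM in ATP11A/C KD and 233, 242, 242 and 245 CPM in CDC50A KD. ORP5/8 KD libraries were below all others. On the log2 scale Atf6 differed by -0.25 ± 0.04 (SE, adjusted p = 7.46e-06) in ORP5/8 KD, against -0.02 ± 0.04 (adjusted p = 0.742) and 0.03 ± 0.04 (adjusted p = 0.572) in ATP11A/C and CDC50A KD.

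Of the 10 degradation genes, 9 were tested: 8 were lower in ORP5/8 KD, 4 were higher and 1 lower in ATP11A/C KD, and 5 were higher in CDC50A KD. Edem1, which trims mannose from misfolded glycoproteins, had the lowest fold change of all 36 genes in ORP5/8 KD. It was at 454, 472, 465 and 478 CPM in Parental, 296, 284, 275 and 274 CPM in ORP5/8 KD, 572, 553, 577 and 592 CPM in ATP11A/C KD and 667, 654, 639.7 and 629.7 CPM in CDC50A KD. The groups did not overlap, and its log2 fold change was -0.73 ± 0.04 (SE, adjusted p = 1.01e-12), 0.30 ± 0.04 (SE, adjusted p = 2.30e-06) and 0.47 ± 0.04 (SE, adjusted p = 2.13e-09) for the ORP5/8, ATP11A/C and CDC50A knockdowns. In ORP5/8 KD that is 0.604 times the Parental level. Herpud1, a membrane scaffold of the Hrd1 complex whose upstream sequence is shown with the elements, was at 95.6, 96.7, 83.3 and 91.6 CPM in Parental, 78.5, 79.1, 84.2 and 76.9 CPM in ORP5/8 KD, 123, 133, 123 and 128 CPM in ATP11A/C KD and 148, 152, 153 and 152 CPM in CDC50A KD. Its ORP5/8 KD and Parental libraries overlapped, while those of the other knockdowns were higher. For Herpud1 the log2 fold changes were -0.20 ± 0.05 (SE, adjusted p = 0.00115), 0.47 ± 0.05 (SE, adjusted p = 5.67e-08) and 0.72 ± 0.05 (SE, adjusted p = 6.49e-11). Derl2, a derlin of the Hrd1 complex, was at 57.6, 61.7, 60.5 and 61.7 CPM in Parental, 47.1, 41.6, 43.6 and 44.2 CPM in ORP5/8 KD, 52.8, 62.6, 56.8 and 57.5 CPM in ATP11A/C KD and 55.2, 60.5, 54.3 and 55.8 CPM in CDC50A KD. All ORP5/8 KD libraries were below the others. Derl2 differed on the log2 scale by -0.45 ± 0.05 (SE, adjusted p = 3.94e-07) in ORP5/8 KD, against -0.07 ± 0.05 (adjusted p = 0.292) in ATP11A/C KD and -0.10 ± 0.05 (adjusted p = 0.124) in CDC50A KD, where a call came without CDC50A KD 2 (adjusted p = 0.036).

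The Hrd1 complex itself held genes of several patterns. Syvn1, which encodes the ligase Hrd1, was at 94.6 ± 4.28 CPM in Parental, 83.9 ± 6.33 CPM in ORP5/8 KD, 118 ± 5.69 CPM in ATP11A/C KD and 113 ± 7.45 CPM in CDC50A KD. The ligase gene was lower in ORP5/8 KD (-0.17 ± 0.06 (SE, adjusted p = 0.0153)), higher in ATP11A/C KD (0.32 ± 0.06 (SE, adjusted p = 1.05e-04)) and higher in CDC50A KD (0.26 ± 0.06 (SE, adjusted p = 7.10e-04)). Sel1l, its adaptor, was at 267 ± 1.89 CPM in Parental, 233 ± 5.02 CPM in ORP5/8 KD, 286 ± 6.31 CPM in ATP11A/C KD and 333 ± 12.01 CPM in CDC50A KD, with calls in the same directions. Derl1 was at 185 ± 6.96 CPM in Parental, 152 ± 3.16 CPM in ORP5/8 KD, 190.2 ± 5.45 CPM in ATP11A/C KD and 211 ± 5.71 CPM in CDC50A KD. This derlin was lower in ORP5/8 KD (-0.29 ± 0.04 (SE, adjusted p = 2.78e-06)) and higher in CDC50A KD (0.19 ± 0.04 (SE, adjusted p = 3.81e-04)). Os9, a lectin that brings glycoproteins to the complex, was lower in ORP5/8 KD (-0.14 ± 0.05 (SE, adjusted p = 0.0358)), and stood at 0.06 ± 0.05 (adjusted p = 0.437) in ATP11A/C KD and 0.12 ± 0.05 (adjusted p = 0.0573) in CDC50A KD. Selenos, a selenoprotein that recruits the ATPase p97, was at 85.4 ± 2.75 CPM in Parental, 64.001 ± 2.15 CPM in ORP5/8 KD, 71.4 ± 4.11 CPM in ATP11A/C KD and 86.4 ± 1.52 CPM in CDC50A KD. Selenos was lower in ORP5/8 KD (-0.42 ± 0.04 (SE, adjusted p = 7.38e-08)) and in ATP11A/C KD (-0.26 ± 0.04 (SE, adjusted p = 6.75e-05)). Edem2, a mannosidase-like relative of Edem1, was at 58.4 ± 3.82 CPM in Parental, 53.6 ± 1.83 CPM in ORP5/8 KD, 53.6 ± 3.70 CPM in ATP11A/C KD and 57.4 ± 2.71 CPM in CDC50A KD. Edem2 was called in 0 of the 6 comparisons by edgeR and by DESeq2, with 2 at an unadjusted p under 0.05 in edgeR. Its difference became a call in ORP5/8 KD without Parental 3 (adjusted p = 0.0312) and in ATP11A/C KD without Parental 3 or ATP11A/C KD 1 (adjusted p from 0.0285 to 0.0398). The call of Syvn1 in ORP5/8 KD was lost without Parental 1 or 2 or ORP5/8 KD 1 or 2 or with upper-quartile scaling (adjusted p from 0.0587 to 0.139). That of Os9 in ORP5/8 KD was lost without Parental 1 or 2, ORP5/8 KD 1, 2 or 4 or ATP11A/C KD 3 or 4 or with upper-quartile scaling (adjusted p from 0.0565 to 0.293). For Sel1l in ATP11A/C KD (adjusted p = 0.0368) the call was lost without Parental 3 or 4, ATP11A/C KD 1 or 4 or CDC50A KD 1 or 3, with no low-count filter, with the replicate number as a block or in a fit of the 2 groups alone (adjusted p from 0.0502 to 0.129). Os9 in CDC50A KD gained a call without Parental 1 or 2 or ATP11A/C KD 1 or 2, with upper-quartile scaling, with no low-count filter or in a fit of the 2 groups alone (adjusted p from 0.00974 to 0.0493).

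Of the 8 genes of translocation and N-glycosylation, 7 were lower in ORP5/8 KD, 4 were higher in ATP11A/C KD and 7 were higher in CDC50A KD. Ssr3, a subunit of the TRAP complex beside the channel, was at 367, 378, 393 and 388 CPM in Parental, 283, 263, 242 and 269.6 CPM in ORP5/8 KD, 354, 402, 388 and 428 CPM in ATP11A/C KD and 415, 450.2, 433 and 437 CPM in CDC50A KD. ORP5/8 KD was below all other libraries, and ATP11A/C KD overlapped with Parental. Its log2 fold change was -0.53 ± 0.05 (SE, adjusted p = 4.93e-08) in ORP5/8 KD and 0.18 ± 0.05 (SE, adjusted p = 0.00668) in CDC50A KD, and 0.04 ± 0.05 (adjusted p = 0.563) in ATP11A/C KD. Sec61a1, which forms the channel, was at 477, 505, 482 and 499 CPM in Parental, 349, 369.8, 370.4 and 346 CPM in ORP5/8 KD, 553, 414, 498 and 497 CPM in ATP11A/C KD and 548, 572, 574 and 527 CPM in CDC50A KD. ATP11A/C KD libraries spread from below to above the Parental range (adjusted p = 0.996), and its log2 fold change was -0.45 ± 0.06 (SE, adjusted p = 2.89e-06) in ORP5/8 KD and 0.18 ± 0.06 (SE, adjusted p = 0.0185) in CDC50A KD. Ssr1, another TRAP subunit, was at 477, 500.3, 479.7 and 474 CPM in Parental, 371, 365, 345 and 364 CPM in ORP5/8 KD, 434, 488, 446 and 497 CPM in ATP11A/C KD and 512, 580.3, 549 and 515 CPM in CDC50A KD. It was lower in ORP5/8 KD (-0.42 ± 0.05 (SE, adjusted p = 4.19e-07)), higher in CDC50A KD (0.16 ± 0.05 (SE, adjusted p = 0.0099)) and not called in ATP11A/C KD (-0.05 ± 0.05, adjusted p = 0.464). In CDC50A KD the call of Sec61a1 was lost without CDC50A KD 2 or 3 (adjusted p from 0.0699 to 0.0703) and that of Ssr1 without CDC50A KD 2 (adjusted p = 0.0799).

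Ssr2, Ddost and Rpn1 were called in all 3 knockdowns, and Sec61b and Sec63 in fewer. Ssr2, a further TRAP subunit, was at 279.9 ± 7.21 CPM in Parental, 231 ± 11.8 CPM in ORP5/8 KD, 308 ± 15.2 CPM in ATP11A/C KD and 344 ± 11.5 CPM in CDC50A KD. Ddost and Rpn1, subunits of the oligosaccharyltransferase that attaches the sugar, had log2 fold changes of -0.14 and -0.17 in ORP5/8 KD, 0.15 and 0.11 in ATP11A/C KD, and 0.41 and 0.32 in CDC50A KD. Sec61b, a small channel subunit, was at 78.3 ± 7.03 CPM in Parental, 77.02 ± 4.02 CPM in ORP5/8 KD, 90.99 ± 4.94 CPM in ATP11A/C KD and 101 ± 2.72 CPM in CDC50A KD. It was not called in ORP5/8 KD (adjusted p = 0.751) and higher in ATP11A/C KD (0.22 ± 0.06 (SE, adjusted p = 0.00465)) and CDC50A KD (0.37 ± 0.06 (SE, adjusted p = 1.78e-05)). Its expected counts carried decimals in 13 libraries, a mark of reads shared with other loci, so its level is uncertain. Sec63, a J-domain partner of the channel, was lower in ORP5/8 KD (-0.21 ± 0.04 (SE, adjusted p = 5.39e-04)) and stood at 0.02 ± 0.04 (adjusted p = 0.821) and 0.10 ± 0.04 (adjusted p = 0.0613) in the other knockdowns. In ATP11A/C KD the calls were lost for Rpn1 without Parental 3 or 4, ATP11A/C KD 1 or 4 or CDC50A KD 1 or 3, with no low-count filter or in a fit of the 2 groups alone (adjusted p from 0.0517 to 0.137). They were lost for Ddost without Parental 3 or ATP11A/C KD 1 (adjusted p from 0.0613 to 0.0648) and for Ssr2 without ATP11A/C KD 1 (adjusted p = 0.0764). In ORP5/8 KD that of Ddost was lost without Parental 1 or 2 or ORP5/8 KD 1 or with upper-quartile scaling (adjusted p from 0.0693 to 0.22). In CDC50A KD Sec63 was called without Parental 1, ORP5/8 KD 1 or 3 or ATP11A/C KD 2 or in a fit of the 2 groups alone (adjusted p from 0.0207 to 0.0484).

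The knockdowns were also compared with each other, in comparisons that share libraries with those against Parental. Between ORP5/8 KD and CDC50A KD, 32 of 35 genes were lower in ORP5/8 KD and 0 were higher, with a median log2 fold change of -0.56, against 29.4% of all tested genes lower and 27.5% higher. At an unadjusted p under 0.05 in edgeR, and with DESeq2, 0 were higher too. With upper-quartile scaling the split over all genes moved from 3848 lower and 3603 higher to 2891 and 4463, and 31 of the 35 were lower. Creld2 differed by -1.32 ± 0.04 (SE, adjusted p = 6.97e-16), Manf by -1.23 ± 0.05 (SE, adjusted p = 7.68e-15), Edem1 by -1.20 ± 0.04 (SE, adjusted p = 5.07e-16), Pdia4 by -1.14 ± 0.04 (SE, adjusted p = 5.63e-15) and Pdia3 by -1.03 ± 0.04 (SE, adjusted p = 4.44e-14), and these 5 genes were at least 2-fold apart. Hspa5 differed by -0.79 ± 0.04 (SE, adjusted p = 6.47e-13). Xbp1 was lower in ORP5/8 KD, at -0.10 ± 0.04 (SE, adjusted p = 0.0264), a call lost without ORP5/8 KD 1, 2, 3 or 4, ATP11A/C KD 1 or CDC50A KD 2, 3 or 4, with upper-quartile scaling, with no low-count filter, with a filter of 1 CPM in 4 libraries or in a fit of the 2 groups alone (adjusted p from 0.0529 to 0.512). Dnajb9, Ern1 and Edem2 were not called (adjusted p = 0.271, 0.435 and 0.132).

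Between ORP5/8 KD and ATP11A/C KD, 31 genes were lower in ORP5/8 KD and 0 were higher, with a median of -0.37, against 20.4% of all tested genes lower and 18.2% higher. Again 0 were higher at an unadjusted p under 0.05 in edgeR or with DESeq2. Upper-quartile scaling moved the split over all genes from 2678 lower and 2392 higher to 2018 and 3095, with 30 of the 35 lower. Edem1 was the 1 gene at least 2-fold apart (-1.02 ± 0.04 (SE, adjusted p = 1.29e-14)). Creld2 and Manf followed at -0.96 ± 0.04 (SE, adjusted p = 2.06e-13) and -0.96 ± 0.05 (SE, adjusted p = 7.21e-13). Xbp1 stood at 298 ± 2.05 CPM in ORP5/8 KD and 299 ± 10.004 CPM in ATP11A/C KD (adjusted p = 0.965). Dnajb9, Ern1 and Edem2 were not called either, and Ern1 became a call without ATP11A/C KD 2 (adjusted p = 0.0437). Selenos was lower, at -0.16 ± 0.04 (SE, adjusted p = 0.00615), a call lost with upper-quartile scaling (adjusted p = 0.0564).

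Between CDC50A KD and ATP11A/C KD, 24 genes were higher in CDC50A KD and 1 was lower, with a median of 0.20, against 13.5% of all tested genes higher and 12.7% lower. Over all genes, 1763 higher and 1665 lower became 1446 and 1915 with upper-quartile scaling, and the 1763 became 1118 without ATP11A/C KD 3 and 1169 without CDC50A KD 3. All 9 chaperones and all 4 isomerases were higher. Dnajc3 had the highest value, 0.41 ± 0.04 (SE, adjusted p = 2.01e-06), followed by Creld2 at 0.36 ± 0.04 (SE, adjusted p = 7.09e-06) and Pdia4 at 0.35 ± 0.04 (SE, adjusted p = 7.97e-06). Hspa5 was higher by 0.20 ± 0.04 (SE, adjusted p = 0.00112). Ern1 was the gene lower in CDC50A KD (-0.20 ± 0.06 (SE, adjusted p = 0.0266)), a call lost without ATP11A/C KD 3 or CDC50A KD 2 or 3 or with no low-count filter (adjusted p from 0.054 to 0.0785). The call of Hsp90b1 was lost without ATP11A/C KD 1 or CDC50A KD 2 or in a fit of the 2 groups alone (adjusted p from 0.0549 to 0.0808). That of Dnajb9 was lost without ATP11A/C KD 1 or 3 or CDC50A KD 1, 2 or 3, with upper-quartile scaling or in a fit of the 2 groups alone (adjusted p from 0.0551 to 0.116). That of Sec61a1 was lost without ATP11A/C KD 2, 3 or 4 or CDC50A KD 1, 2 or 3, with upper-quartile scaling or in a fit of the 2 groups alone (adjusted p from 0.0504 to 0.122). That of Ssr2 was lost without ATP11A/C KD 3 or CDC50A KD 3 (adjusted p from 0.0604 to 0.0656). Of the 10 genes not called, 5 gained a call in some repeats. Canx did so without ATP11A/C KD 4 or CDC50A KD 4, with no low-count filter or with DESeq2 (adjusted p from 0.029 to 0.0431). Sec61b did so without Parental 2, ORP5/8 KD 1 or ATP11A/C KD 2, with no low-count filter or with the replicate number as a block (adjusted p from 0.0289 to 0.0482). Ssr3 gained a call without ATP11A/C KD 4, with no low-count filter or with DESeq2 (adjusted p from 0.0205 to 0.0464), Xbp1 without ATP11A/C KD 2 or with DESeq2 (adjusted p from 0.0277 to 0.0375) and Sec63 without ATP11A/C KD 2 (adjusted p = 0.0423).

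The genes with an element were compared with those that had a window and neither form. In CDC50A KD, all 10 tested genes with an element were higher, with a median log2 fold change of 0.39, against 12 higher and 1 lower of 19 genes without, with a median of 0.20. In ATP11A/C KD the counts were 9 higher of 10 (median 0.26) and 9 higher and 2 lower of 19 (median 0.06). In ORP5/8 KD they were 8 lower and 1 higher of 10 (median -0.22), and 16 lower and 1 higher of 19 (median -0.26). Pdia6, with an ERSE, was the 1 of the 10 called higher in ORP5/8 KD. Of 13 other tested genes whose window held an element, 4 were higher and 3 lower in ORP5/8 KD, and 4 higher and 1 lower in each of the other 2 knockdowns. Krtcap2, with an ERSE-II, is 1 of these 13 and is also among the other translocation and glycosylation genes counted below. Over all tested genes, 22% were higher and 24.3% lower in ORP5/8 KD, 17.4% and 20.2% in ATP11A/C KD, and 24.3% and 26.1% in CDC50A KD, and the counts of the 13 in ORP5/8 KD lay near those shares. Hyou1, Manf, Atf6, Derl1, Sec61a1 and Ssr2 had no window and are in neither set. The sets also differ in role: both lectin chaperones had an element, and no translocation or N-glycosylation gene of the 36 with a window did. Role and element can therefore not be told apart here. The genes were not picked at random and no test was made of these counts.

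Further genes of the same pathways were counted from lists drawn up by function, with earlier results of these data known. Their counts are thus no independent support, and are to be read against the shares of all tested genes given above. Of 19 other folding factors, 8 were lower and 1 higher in ORP5/8 KD, 7 higher and 2 lower in ATP11A/C KD, and 11 higher and 1 lower in CDC50A KD. Of 28 other translocation and glycosylation genes, 16 were lower in ORP5/8 KD, 9 higher and 5 lower in ATP11A/C KD, and 19 higher and 1 lower in CDC50A KD. Of 20 other degradation genes, 6 were lower and 2 higher in ORP5/8 KD, 4 higher and 2 lower in ATP11A/C KD, and 7 higher in CDC50A KD. In percent, 30% of these 20 were lower in ORP5/8 KD and 20% higher in ATP11A/C KD, near the 24.3% and 17.4% of all genes. Of 6 tested sensors and proteases, 3 were lower and 1 higher in ORP5/8 KD, and 1 was lower in each of the other 2. Of 12 COPII coat genes, which carry cargo out of the ER, 4 were lower in ORP5/8 KD, 0 were called in ATP11A/C KD by edgeR (4 at an unadjusted p under 0.05), and 3 were higher and 1 lower in CDC50A KD. The 25% of COPII genes higher in CDC50A KD was near the 24.3% of all genes, and lists of 6 or 12 genes allow no finer reading.

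At the ends of these lists, Sec24d, a cargo adaptor of the COPII coat, was the lowest in ORP5/8 KD at -0.71 ± 0.05 (SE, adjusted p = 5.56e-11), followed by Ero1lb, an oxidase that recharges the isomerases, at -0.69 ± 0.05 (SE, adjusted p = 1.15e-10). In ATP11A/C KD the lowest were Ero1l, the other such oxidase, at -0.70 ± 0.06 (SE, adjusted p = 9.33e-09), and Srp54a, of the signal recognition particle, at -0.43 ± 0.07 (SE, adjusted p = 6.03e-05). Srp54a has near-identical copies in the mouse, so its counts are uncertain. In CDC50A KD the lowest were Sec61a2, a relative of the channel gene, at -0.40 ± 0.10 (SE, adjusted p = 0.00172) and Ero1l at -0.27 ± 0.06 (SE, adjusted p = 0.00115). Ubac2, an ER membrane protein linked to degradation, was the highest in all 3, at 0.97 ± 0.06 (SE, adjusted p = 2.79e-11), 0.88 ± 0.06 (SE, adjusted p = 3.00e-10) and 1.02 ± 0.06 (SE, adjusted p = 2.83e-11) for the ORP5/8, ATP11A/C and CDC50A knockdowns. Its mean was 35.1 ± 2.66 CPM in Parental and 71.2 ± 1.84 CPM in CDC50A KD (SD, n = 4).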

How the data were processed

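RNA was measured in 16 libraries of RAW264.7 cells, 4 per group. Per the submitters' processing notes, the tools were Trim Galore 0.5.0, STAR 2.7.5a, Picard and RSEM, and the genome build was mm10; the counting settings are not given in the sources used here. The deposited values are expected counts per gene, and 4.64% carry decimals. The authors' expected counts were rounded to whole counts before testing.

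Genes were kept by filterByExpr (minimum count 10), leaving 13107 with 99.97% of all counts. After TMM scaling, the libraries were fitted together, with a term per group, by the quasi-likelihood test of edgeR 4.0.16 in R 4.3.3, with 12 residual degrees of freedom and a biological coefficient of variation of 6.86%. P-values were adjusted by Benjamini-Hochberg within each of the 6 comparisons, and calls were made at adjusted p below 0.05. Each standard error is the log2 estimate over the square root of F. Replicate libraries differed by 4.85 to 45.0 times the counting noise (chi-square per degree of freedom). None was therefore the same library deposited in duplicate within counting noise. These values do not tell separate cultures from separate libraries of 1 RNA. The highest were ATP11A/C KD 1 against 2, 3 and 4, at 45.0, 20.8 and 25.8, while Parental pairs lay at 4.85 to 8.93. The fit shares 1 estimate of the spread over the 4 groups, so it does not allow for this difference between groups. On simulated data for ORP5/8 KD against Parental (12943 genes), 39.4% of genes changed by 0.25 on the log2 scale, 68.2% of those changed by 0.5 and 95.3% of those changed by 1 were called in the right direction. Only 66, 66 and 64 genes were changed by these amounts, whereas in the data 2878 were called higher and 3181 lower. An adjusted p depends on how many genes change, so these shares do not carry over to the real comparison.

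Gene positions and exon lengths came from GENCODE M21 on GRCm38, and promoter windows from RefSeq on GRCm38.p6. The members and gene lists were chosen with earlier results of these data known. Values in every library are given for Hspa5, Xbp1, Ern1 and Atf6 and for the 3 members of each role with the largest absolute log2 fold change against Parental. Of the other lists, the 2 lowest and the 1 highest gene per comparison with Parental are named, taken over all lists together.

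Alternatives were other scalings (upper-quartile, DESeq2 size factors), other low-count filters (none, or 1 CPM in 4 libraries), a block for the replicate number, a fit limited to the 2 groups compared, the Wald test of DESeq2 1.42.0, and leaving out each library. No set test was made.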

Additional observations from a re-analysis of the deposited data

Results flagged for a closer look

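In groups of 4 libraries, a value was picked out where it lay far from the other 3 (its gap to the nearest over the group's range above Dixon's critical value). Of 144 such groups, 11 held one, and chance gives about 5% of groups. Hspa5 was at 2429 CPM in Parental 2, where the other 3 libraries lay at 2334.5 to 2335 CPM. Creld2 was at 136 CPM in Parental 2, above 122 to 125 CPM, and at 247 CPM in CDC50A KD 3, above 232 CPM in the others. Pdia3 was at 1466 CPM in ATP11A/C KD 2, above 1336 to 1346 CPM, and at 1719 CPM in CDC50A KD 2, above 1549.7 to 1569 CPM. Herpud1 was at 148 CPM in CDC50A KD 1, below 152 to 153 CPM. Sdf2l1 was at 289.8 CPM in CDC50A KD 4, below 302 to 305 CPM, and Ddost at 413 CPM in the same library, below 451 to 453 CPM. Dnajb9 was at 22.5 CPM in Parental 3, above 19.7 to 19.98 CPM. Selenos was at 67.2 CPM in ORP5/8 KD 1, above 62.6 to 63.3 CPM, and at 77.5 CPM in ATP11A/C KD 2, above 68.7 to 70.1 CPM.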

How the results depend on the processing

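Among the repeats of the 210 tests of single genes under other settings, 4639 kept their direction and their side of the threshold, 105 lost a call, 33 gained one and 53 changed sign. All 53 were in differences that were not called. The median of the 35 tested genes was -0.19 with upper-quartile scaling in ORP5/8 KD against Parental, -0.32 against ATP11A/C KD and -0.49 against CDC50A KD, with the direction kept. The count lower in CDC50A KD against ATP11A/C KD was 0 with no low-count filter, and 0 to 1 when single libraries were left out (0 without ATP11A/C KD 3, CDC50A KD 2 or CDC50A KD 3). The count lower in CDC50A KD against Parental was 1 to 2 (2 without CDC50A KD 2). The count of all genes higher in CDC50A KD than in ATP11A/C KD ran from 1118 without ATP11A/C KD 3 and 1169 without CDC50A KD 3 to 1873. The cause was not tested. The share of counts in Parental was 1.79% over counts outside mitochondrial genes; without Hspa5, Hsp90b1 and Calr the shares were 1.16% in Parental, 1.43% in CDC50A KD, 1.31% in ATP11A/C KD and 0.992% in ORP5/8 KD, by construction lower. Sign changes with upper-quartile scaling were Dnajc3 (0.0098) and Sec61b (0.049) in ORP5/8 KD and Atf6 (0.0065) in ATP11A/C KD. With the filter of 1 CPM they were Canx (-0.0070) and Sec61a1 (-0.0069) in ATP11A/C KD and Selenos (-0.0015) in CDC50A KD, and in a fit of the 2 groups Canx (-0.00074) and Sec61a1 (-0.0010) in ATP11A/C KD. Leaving out single libraries gave -0.055 to 0.051 for Sec61b in ORP5/8 KD, -0.026 to 0.035 for Canx, -0.064 to 0.086 for Sec61a1, -0.0028 to 0.12 for Os9 and -0.011 to 0.043 for Sec63 in ATP11A/C KD, and -0.069 to 0.023 for Edem2 and -0.0026 to 0.034 for Selenos in CDC50A KD. In ORP5/8 KD against ATP11A/C KD, Xbp1 and Edem2 were at 0.047 and 0.050 with upper-quartile scaling, 0.0040 and 0.0066 with no low-count filter, 0.0091 and 0.012 with the filter of 1 CPM and 0.0019 and 0.0048 in a fit of the 2 groups, and at -0.019 to 0.017 and -0.041 to 0.040 when single libraries were left out. Derl2 in CDC50A KD against ATP11A/C KD was at -0.074 to 0.012. Replicate numbers gave no strong pairing: same-numbered libraries correlated at -0.166 to 0.105 over genes, with 2 of 24 pairs over 0.1. Of 16 libraries, 8 correlated best with their own number out of 4, more than random numbering would give on average. A weak pairing is therefore not excluded. With the replicate number as a block, 30 genes were lower in ORP5/8 KD, 19 higher in ATP11A/C KD and 27 higher in CDC50A KD, and Sec61a1 in ATP11A/C KD was at -0.0016. Levels of 3 counts or fewer, as for Derl3, are below what this depth resolves.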
